A study of Mus musculus with 45 samples.

Results

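The ATP-binding cassette (ABC) transporter family was examined in livers of mice dosed with TCDD, chemically 2,3,7,8-tetrachlorodibenzo-p-dioxin, which is the prototypical dioxin and a ligand of the aryl hydrocarbon receptor. Members were all genes whose symbol is Abc followed by 1 letter from a to g, a number and an optional letter, and that had more than 4 reads in any of the 45 libraries. The rule found 42 members among 17464 genes that met the same read threshold. The other 8 ABC symbols in the count files (Abca12, Abca13, Abca15, Abca16, Abca17, Abcb5, Abcc8 and Abcg4) had at most 4 reads in every library and were not tested. Tap1, Tap2 and Cftr, ABC genes with other symbols, lay outside the rule.

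All 45 animals were female C57BL/6 mice, which the sample labels describe as ovariectomized, and received sesame oil vehicle or TCDD by oral gavage over 28 days. The study's methods describe no ovariectomy, and assume that randomization offset effects of estrous stage. One label field gives a dose every 4 days and another says daily, and the first is followed here. The 9 groups held 5 mice each: a vehicle group, groups at 0.01, 0.03 and 0.1 μg/kg per dose at the low end of the range, groups at 0.3, 1 and 3 μg/kg in the middle, and groups at 10 and 30 μg/kg at the top. The question was which members responded to TCDD and at which dose. RNA came from whole liver, so fewer cells of a type and less RNA per cell cannot be told apart.

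ABC proteins bind and hydrolyse ATP at conserved nucleotide-binding domains, and most of them use that energy to move a substrate across a membrane. In the hepatocyte, one set of members lines the canalicular membrane and secretes bile salts, phosphatidylcholine, sterols and conjugated drugs into bile. Others sit in the basolateral membrane and return conjugates to blood, and these are known to be induced when bile flow is impaired. Further members load cholesterol onto lipoproteins, import fatty acyl-CoA into peroxisomes or export compounds from mitochondria, and the E and F subfamilies have no transmembrane part and act in translation.

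Between 11767284 and 56509899 reads per mouse were assigned to genes. Known TCDD-responsive genes (Cyp1a1, Cyp1a2, Tiparp, Nqo1 and Ahrr) were all higher at 3, 10 and 30 μg/kg. One mouse at 0.01 μg/kg (replicate 2) had 2.93 CPM (read counts scaled to a common library size of 1000000) of Xist, against 1112 to 2844 CPM in the other 44 mice. The Y-linked genes Ddx3y, Kdm5d, Uty and Eif2s3y summed to 0 CPM in that mouse, as in every other mouse. The cause of its low Xist was not tested. Another mouse at 0.01 μg/kg (replicate 5) had the highest level of the macrophage gene Adgre1, 69.0 CPM against 5.78 to 41.2 CPM in the others, and carried 69.7 CPM of Cyp1a1. Both mice were kept, and the counts of changed members were also computed without them. Among cell type markers, 3 of 6 for hepatocytes fell at 30 μg/kg (Apoa1, Ttr and Cps1), with a median log2 fold change of -0.51 over the list, and 2 of 5 for stellate cells rose (Reln and Col1a1). The 5 stellate markers summed to between 90.1 and 110.9 CPM in vehicle mice and between 209.7 and 331 CPM at 30 μg/kg, with no overlap. Reln made up most of this difference, with means of 54.5 CPM in vehicle mice and 178.3 CPM at 30 μg/kg. Col1a1 means were 6.09 and 32.3 CPM, and Lrat, Des and Pdgfrb did not pass. Higher levels were also found for 1 of 6 macrophage markers (Cd68), 2 of 4 lymphocyte markers, both neutrophil markers tested and 3 of 5 endothelial markers. None of the 5 cholangiocyte markers passed with edgeR, with DESeq2 or at an unadjusted p under 0.05. No marker tested was at 0 in every mouse of a group, and the part of other cell types in the results that follow was not tested.

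Abcd3 and Abcb11 had the highest levels of the family in vehicle livers. CPM were scaled by the trimmed mean of M-values (TMM), and levels are compared between genes only after division by exon length. Abcd3, a transporter of the peroxisomal membrane, measured 160 ± 13.4 CPM per kb of exon (SD, n = 5), and Abcb11, the bile salt export pump, 144 ± 39.8 CPM per kb. The ranges of the pair overlapped, whereas the lowest vehicle mouse for Abcb11 (96.6 CPM per kb) lay above the highest for the next member, Abcc2 (76.7 CPM per kb). From Abcc2 down to Abca1 each member overlapped with its neighbour, in the order Abcc2 (64.8 CPM per kb), Abcg5 (62.3), Abcc3 (51.6), Abca6 (50.3), Abcg8 (41.2), Abcc6 (38.2), Abca8a (31.0), Abcb4 (23.7) and Abca1 (19.6). In all, 20 members reached 10 CPM per kb, 29 reached 1 CPM per kb and 13 lay below it. At the low end stood Abcb1b, Abcc12 and Abca4, with 0.0516, 0.0115 and 0.00653 CPM per kb. Of the 42 members, 40 had more than 4 reads in some vehicle mouse. Abcc12 and Abca4 were the exceptions.

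**Figure D1:**
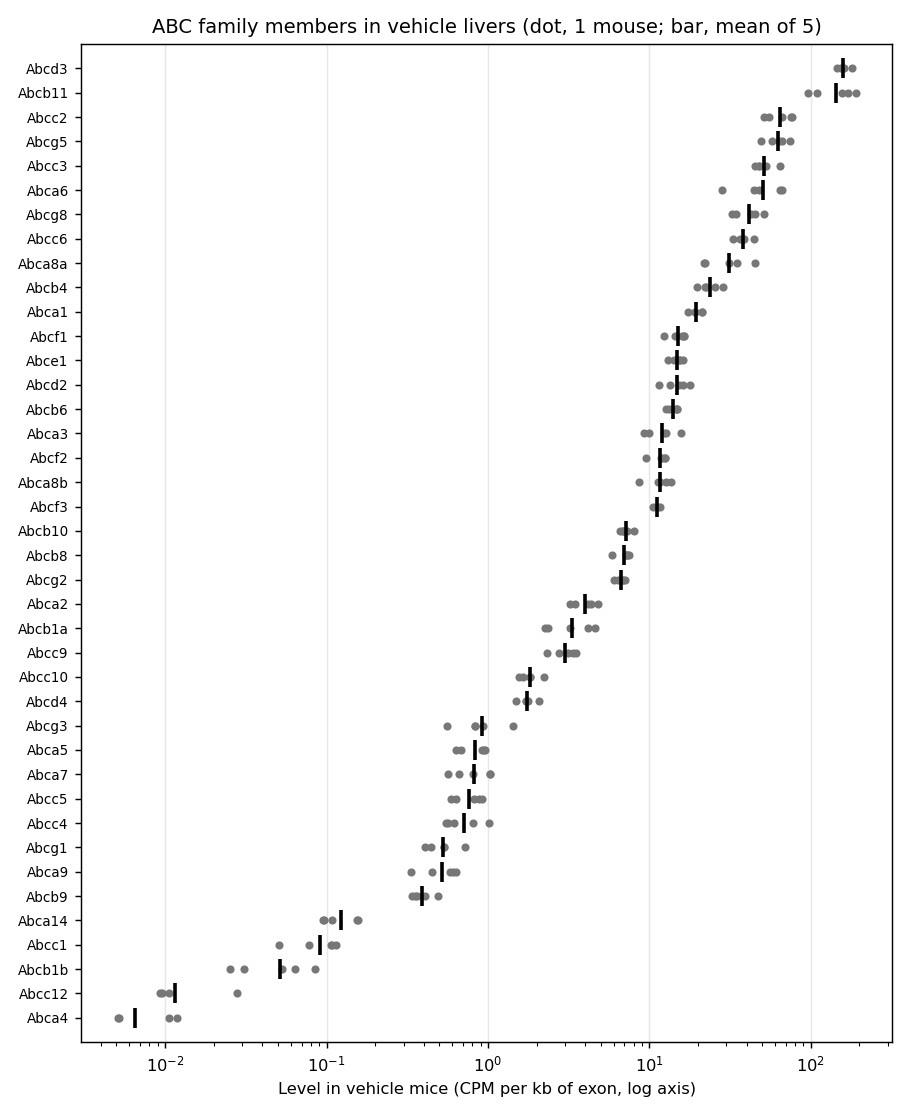
Level of 40 of the 42 ABC family members in the 5 vehicle livers, in TMM-normalized CPM per kb of exon on a log axis. Dots are single mice and bars are means of 5, and mice with no read (for Abcc12 and Abca4) cannot be drawn on this axis. Abcd3 and Abcb11 lie above 90 CPM per kb, and 13 members have means below 1 CPM per kb.

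Few members moved at low doses, and 17 of 42 differed from vehicle at 30 μg/kg. A member was called changed when its adjusted p was under 0.05 in edgeR's quasi-likelihood test with Benjamini-Hochberg adjustment over all 17464 genes; every adjusted p below is of this kind unless another tool is named. No member was called by edgeR or DESeq2 at 0.01 μg/kg (background 0% of all genes), 0.03 μg/kg (0.0573%) or 0.1 μg/kg (0.0229%). At these 3 doses 5, 8 and 3 members had an unadjusted p under 0.05, against 10.1%, 11.7% and 5.15% of all genes. One member, Abcc12, was higher at 0.3 μg/kg (background 0.464%). Abcc3, Abcg1, Abcc12 and Abcd2, 4 members against a background of 1.76%, differed at 1 μg/kg, and all were higher. Abcc3, Abcg1, Abcd2, Abcc5, Abcg2 and Abca9 were higher and Abca14 lower at 3 μg/kg, 7 members against a background of 7.54%. At 10 μg/kg Abcc3, Abcg1, Abcc5, Abca9, Abca8a and Abcf3 were higher and Abcd3 lower, 7 members against 15.9% of all genes.

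At 30 μg/kg 10 members were higher and 7 lower, or 40.5% of the family, against 29.6% of all genes, of which 15.5% were higher and 14.1% lower. Changes were mostly small: 5 members passed with at least a 2-fold change (11.4% of all genes did). These were Abcc4, Abcg1 and Abca9, which rose, and Abca14 and Abcb1a, which fell. Every mouse at 30 μg/kg lay above every vehicle mouse for 8 members (10.3% of all genes) and below for 4 members (9.57%). The median log2 fold change of the 42 members was 0.12, and that of all genes was 0.02. A test over all 8 doses together called 21 members (28.8% of all genes), and 22 were called at 1 or more doses (31.2% of all genes). The summed level of the family was 5041 ± 558 CPM in vehicle livers and 4594 ± 428 CPM at 30 μg/kg (SD, n = 5 each), and the ranges overlapped. Without a TMM factor the median of all genes moved up by 0.21 on the log2 scale at 30 μg/kg, and the split became 18 members higher and 4 lower. At 10 μg/kg that scaling moved the median by 0.13 and gave 12 higher and 1 lower.

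**Figure D2:**
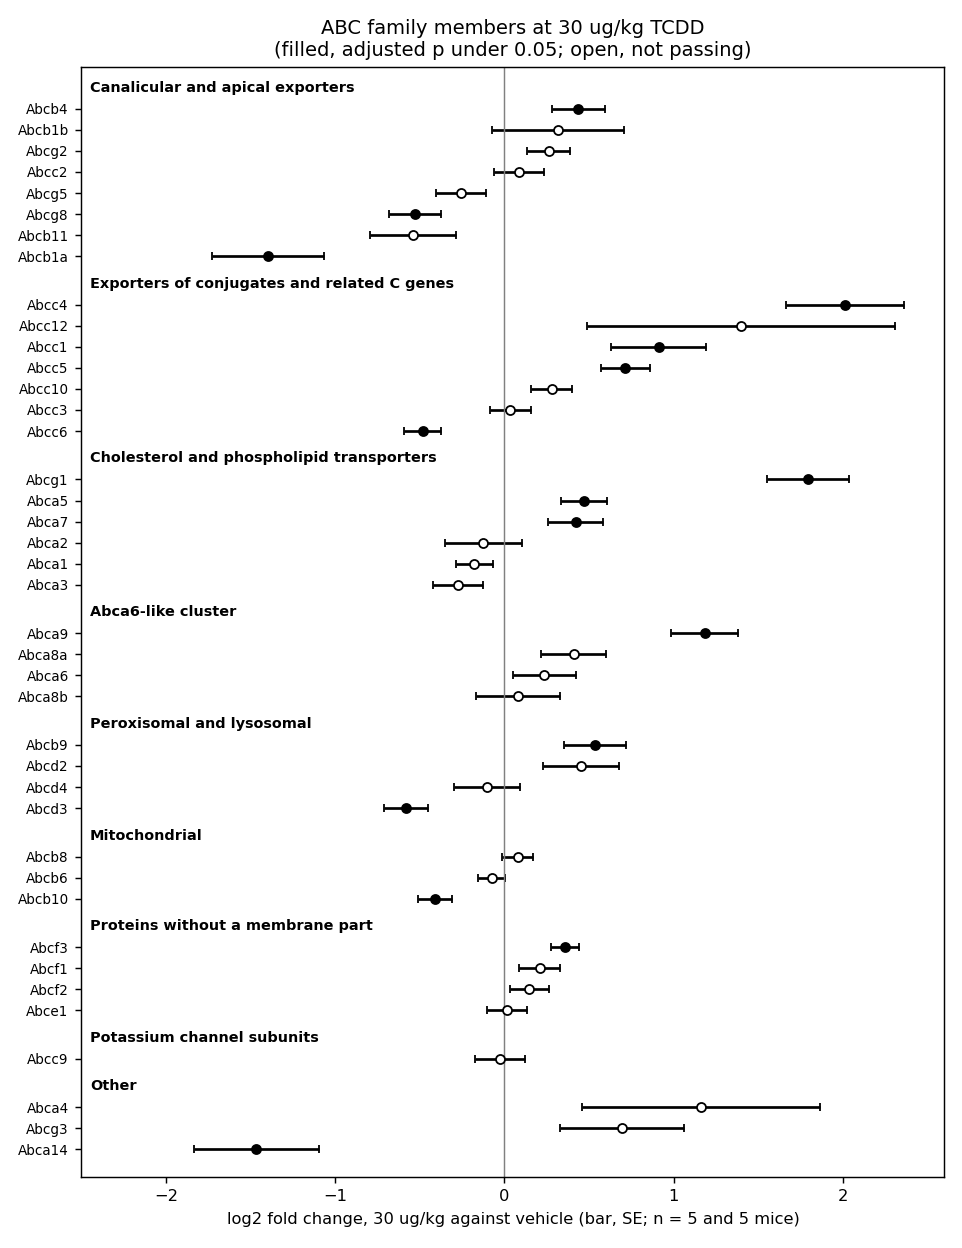
The log2 fold change at 30 μg/kg TCDD against vehicle (horizontal axis) for 40 of the 42 members, grouped by role, with bars of 1 SE and 5 mice per group. Filled points have an adjusted p under 0.05, 10 to the right of 0 and 6 to the left, and the points farthest from 0 among them are Abcc4 (2.01), Abcg1 (1.80), Abca14 (-1.47), Abcb1a (-1.40) and Abca9 (1.18).

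Of the 7 exporters of conjugates and related C genes, Abcc4, Abcc1 and Abcc5 rose at 30 μg/kg, Abcc6 fell and 3 did not pass. Their median log2 fold change was 0.71. Abcc4 (multidrug resistance-associated protein 4, MRP4) is a basolateral exporter of bile acids, cyclic nucleotides and sulfated steroids, encoded at chr14:118482692-118706219, minus strand (GRCm38, as for all gene positions here). The bases upstream of its start site are shown because Abcc4 had the largest rise among members called at 30 μg/kg and the sequence holds the core of the dioxin response element, the letters bound by the activated aryl hydrocarbon receptor. The stretch is chr14:118706220-118706469 of GRCm38.p6 in RefSeq, minus strand, read 5′ to 3′ up to the base before the start site, where the annotation used here lists no gene. Capitals mark the core GCGTG, here in its opposite-strand form CACGC at 101 and 94 bases before the start.
Abcc4: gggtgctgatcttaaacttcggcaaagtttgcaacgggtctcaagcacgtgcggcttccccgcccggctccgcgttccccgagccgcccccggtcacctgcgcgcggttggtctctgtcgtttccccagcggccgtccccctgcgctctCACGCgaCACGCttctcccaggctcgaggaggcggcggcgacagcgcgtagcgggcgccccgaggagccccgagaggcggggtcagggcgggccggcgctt

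Abcc4 in the 5 vehicle mice measured 3.54, 3.63, 3.94, 5.16 and 6.50 CPM. The values of the 5 mice at 30 μg/kg were 7.69, 14.7, 18.8, 24 and 27 CPM. No treated mouse fell within the vehicle range, although the lowest stood close to it. The rise was 4.04-fold, with a log2 fold change of 2.01 ± 0.35 (SE) and an adjusted p of 1.62e-05. From 0.3 to 10 μg/kg the group means lay between 7.79 and 9.56 CPM, and Abcc4 passed at none of these doses. Between TCDD groups, Abcc4 at 30 μg/kg exceeded 1 μg/kg by 0.96 ± 0.33 on the log2 scale (adjusted p = 0.0376), a call that was lost without any 1 of 6 mice (replicates 2, 3 and 4 at 1 μg/kg and replicates 1, 2 and 5 at 30 μg/kg).

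Abcc3 (MRP3; chr11:94343295-94392997, minus strand), a basolateral exporter of glucuronides, rose and then returned to the vehicle level. Vehicle mice measured 257, 271, 272, 302 and 368 CPM. At 1 μg/kg the values were 405, 464, 473, 487 and 509 CPM, all above the vehicle mice. Mice at 30 μg/kg measured 281, 281, 302, 314 and 328 CPM, within the vehicle range. The log2 fold change was 0.67 ± 0.12 at 1 μg/kg (adjusted p = 0.00059), 0.50 ± 0.12 at 3 μg/kg (0.00699) and 0.41 ± 0.12 at 10 μg/kg (0.0164). It was 0.04 ± 0.12 at 30 μg/kg (adjusted p = 0.863). Tested directly, Abcc3 was lower at 30 than at 1 μg/kg by -0.63 ± 0.12 on the log2 scale (adjusted p = 0.000179). The call at 10 μg/kg was lost without vehicle replicate 1 or without replicate 2 or 5 at 10 μg/kg, at an adjusted p of up to 0.0575.

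Abcc6 (MRP6), which releases ATP from hepatocytes and limits ectopic mineralization, fell at 30 μg/kg. Its vehicle values were 190, 210, 218, 220 and 256 CPM, and those at 30 μg/kg were 133, 138, 146, 169 and 197 CPM. The groups overlapped at 1 treated mouse. The log2 fold change was -0.48 ± 0.11 (adjusted p = 0.000762), and at 10 μg/kg it was -0.27 ± 0.11 (adjusted p = 0.0939). Abcc5 (MRP5), an exporter of cyclic nucleotides, rose from 8.20 ± 1.56 to 13.5 ± 1.54 CPM (SD), a log2 change of 0.71 ± 0.15 (SE), and was also higher at 10 and 3 μg/kg. Its call at 3 μg/kg was lost in 7 of 10 fits that left out a mouse, and that at 10 μg/kg without vehicle replicate 2 or 4 (adjusted p of up to 0.0638). Abcc1 (MRP1), an exporter of glutathione conjugates, rose from 1.38 ± 0.40 to 2.62 ± 0.51 CPM, or by 0.91 ± 0.28 on the log2 scale. For Abcc5 and Abcc1 every treated mouse at 30 μg/kg lay above every vehicle mouse. Abcc10 did not pass, at a log2 change of 0.28 ± 0.12 (adjusted p = 0.08), but passed without a TMM factor (0.49, adjusted p = 0.00182), with the filterByExpr read filter and without vehicle replicate 5 (adjusted p = 0.0254).

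Abcc12 was called at 0.3 and 1 μg/kg only, and rests on few reads. Vehicle libraries held 0, 1, 1, 1 and 3 reads, and libraries of the 8 TCDD groups held between 1 and 41. The 5 mice at 1 μg/kg had 1, 8, 9, 11 and 41 reads. The fitted log2 fold change was 3.15 ± 0.77 at 0.3 μg/kg (adjusted p = 0.0428) and 3.07 ± 0.77 at 1 μg/kg (adjusted p = 0.0229), and 1.40 ± 0.91 at 30 μg/kg (adjusted p = 0.26). Leaving out any 1 of 8 mice ended the call at 0.3 μg/kg, and any 1 of 5 mice ended it at 1 μg/kg. The call at 0.3 μg/kg was also lost without the 2 unusual mice at 0.01 μg/kg. Abcc12 was singled out after its values were seen.

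**Figure D3:**
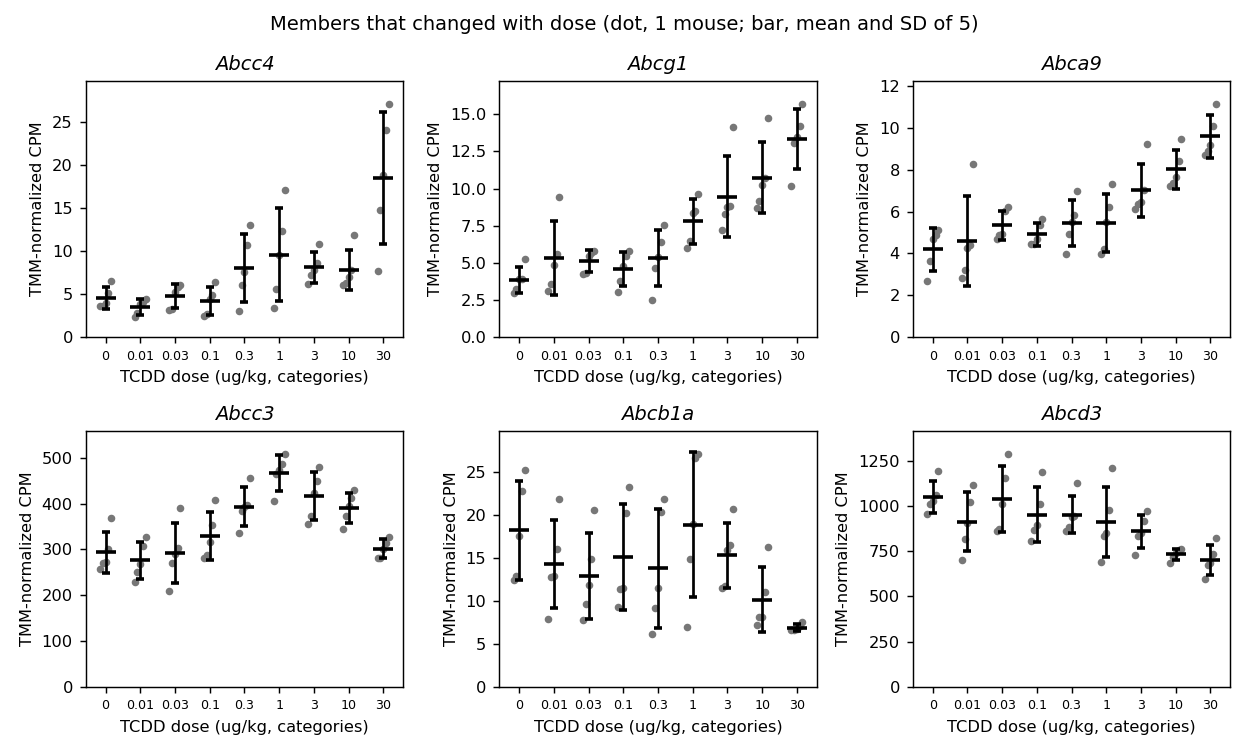
TMM-normalized CPM (vertical axes, from 0) of Abcc4, Abcg1, Abca9, Abcc3, Abcb1a and Abcd3 in the 9 dose groups, with 0 for the vehicle group and doses drawn as evenly spaced categories. Dots are single mice and bars the mean and SD of 5. Abcg1 and Abca9 have their highest group means at 30 μg/kg, Abcc3 peaks at 1 μg/kg (467 CPM) and returns to 301 CPM, and Abcb1a and Abcd3 have their lowest means at 30 μg/kg.

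The 8 canalicular and apical exporters did not move one way. Abcb4 rose and Abcb1a and Abcg8 fell at 30 μg/kg, and 5 did not pass, with a median log2 fold change of -0.08. Abcb1a (chr5:8660077-8748575, plus strand), one of a pair of mouse P-glycoproteins that export hydrophobic drugs, showed the largest fall of the group. Vehicle mice measured 12.4, 13.0, 17.6, 22.8 and 25.3 CPM. The 5 mice at 30 μg/kg lay between 6.57 and 7.53 CPM, at 6.57, 6.58, 6.74, 7.03 and 7.53 CPM. Groups did not overlap, and the SD among mice was 5.75 CPM in vehicle and 0.403 CPM at 30 μg/kg. The level was 2.63-fold lower, with a log2 fold change of -1.40 ± 0.33 (adjusted p = 0.00118), against -0.84 ± 0.32 at 10 μg/kg (adjusted p = 0.0714) and a group mean at 1 μg/kg of 18.9 CPM. Abcb1b, its neighbour and the other gene of the pair, had 2 to 43 reads per mouse and did not pass (log2 change 0.32 ± 0.39). Reads that align to more than 1 place are not in these counts, so the split between the pair is uncertain. In the annotation used here Gm42686, an unverified gene model on the opposite strand, shares 10.1% of the Abcb1a exon bases. Whether the release used for counting held this model was not checked.

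Abcb11 (chr2:69238282-69342616, minus strand), which carries bile salts across the canalicular membrane, did not pass the test at 30 μg/kg. Vehicle mice measured 497, 563, 799, 875 and 975 CPM, and mice at 30 μg/kg measured 415, 469, 516, 553 and 598 CPM. The 3 highest vehicle mice lay above every treated mouse and the rest overlapped. The log2 difference was -0.54 ± 0.25 (adjusted p = 0.104). With only vehicle and 30 μg/kg in the fit the adjusted p was 0.0249, at nearly the same difference of -0.54. Within-group spread was wide at low doses, with an SD of 205 CPM in vehicle and 356 CPM at 0.1 μg/kg, against 71.3 CPM at 30 μg/kg.

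Abcb4 (multidrug resistance protein 2 of the mouse), the flippase that supplies phosphatidylcholine to bile, rose slightly. Its vehicle values were 184, 208, 210, 241 and 269 CPM, and those at 30 μg/kg were 234, 244, 285, 301 and 441 CPM. The groups overlapped, and 1 treated mouse stood well above the rest. The log2 fold change was 0.44 ± 0.15 (adjusted p = 0.0283), and without that mouse (replicate 2) it was 0.25 (adjusted p = 0.232). The call was also lost without vehicle replicate 1, 4 or 5 or without replicate 3 at 30 μg/kg, and the test over all doses did not pass (adjusted p = 0.352).

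Abcc2 (MRP2), which exports bilirubin glucuronides and glutathione conjugates into bile, did not pass at any dose. Vehicle mice measured 436, 468, 562, 644 and 654 CPM and mice at 30 μg/kg 468, 517, 615, 654 and 681 CPM, almost the same span. The log2 difference was 0.09 ± 0.15 (adjusted p = 0.705). Abcg2 (breast cancer resistance protein), an exporter of sulfates, urate and porphyrins, passed at 3 μg/kg only. Its vehicle values were 49.5, 52.5, 55.5, 55.6 and 57.3 CPM, and its values at 30 μg/kg were 61.6, 61.9, 62.3, 64.6 and 73.5 CPM. Although these ranges did not overlap, the log2 difference of 0.26 ± 0.13 did not pass (adjusted p = 0.123). At 3 μg/kg, where the mean was 78.5 ± 8.90 CPM (SD), the log2 change was 0.54 ± 0.13 (adjusted p = 0.00537). The 5 mice at 1 μg/kg (60.7 to 81.0 CPM) also lay above every vehicle mouse, although Abcg2 was not called there. Abcg2 passed at 30 μg/kg without a TMM factor (adjusted p = 0.00232), and also with vehicle and 30 μg/kg alone in the fit.

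Abcg5 and Abcg8 encode proteins that join as a dimer to secrete sterols into bile, and their genes lie head to head. The bases between their start sites are shown because both genes share them; they span chr17:84683012-84683120 of GRCm38.p6 in RefSeq, plus strand, 5′ to 3′ toward Abcg8. The stretch lies in an intron of a longer Abcg8 model and holds no core of the dioxin response element on either strand, so no letter is in capitals.
Abcg5-Abcg8: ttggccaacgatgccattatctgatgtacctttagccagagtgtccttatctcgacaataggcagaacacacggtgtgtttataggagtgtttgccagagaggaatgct

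Abcg8 measured 122, 129, 161, 168 and 192 CPM in vehicle mice and 84.5, 93.9, 99.2, 119 and 139 CPM at 30 μg/kg. Of the treated mice 1 lay inside the vehicle range, and the log2 fold change was -0.53 ± 0.16 (adjusted p = 0.00845). Without a TMM factor Abcg8 did not pass (-0.32, adjusted p = 0.0889). Abcg5 measured 133, 155, 173, 181 and 202 CPM in vehicle mice and 112, 118, 141, 166 and 171 CPM at 30 μg/kg, with wide overlap. Its log2 difference of -0.25 ± 0.15 did not pass (adjusted p = 0.198), and the difference between the pair was not tested. The annotated exons of the genes share 82 bases on opposite strands.

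**Figure D4:**
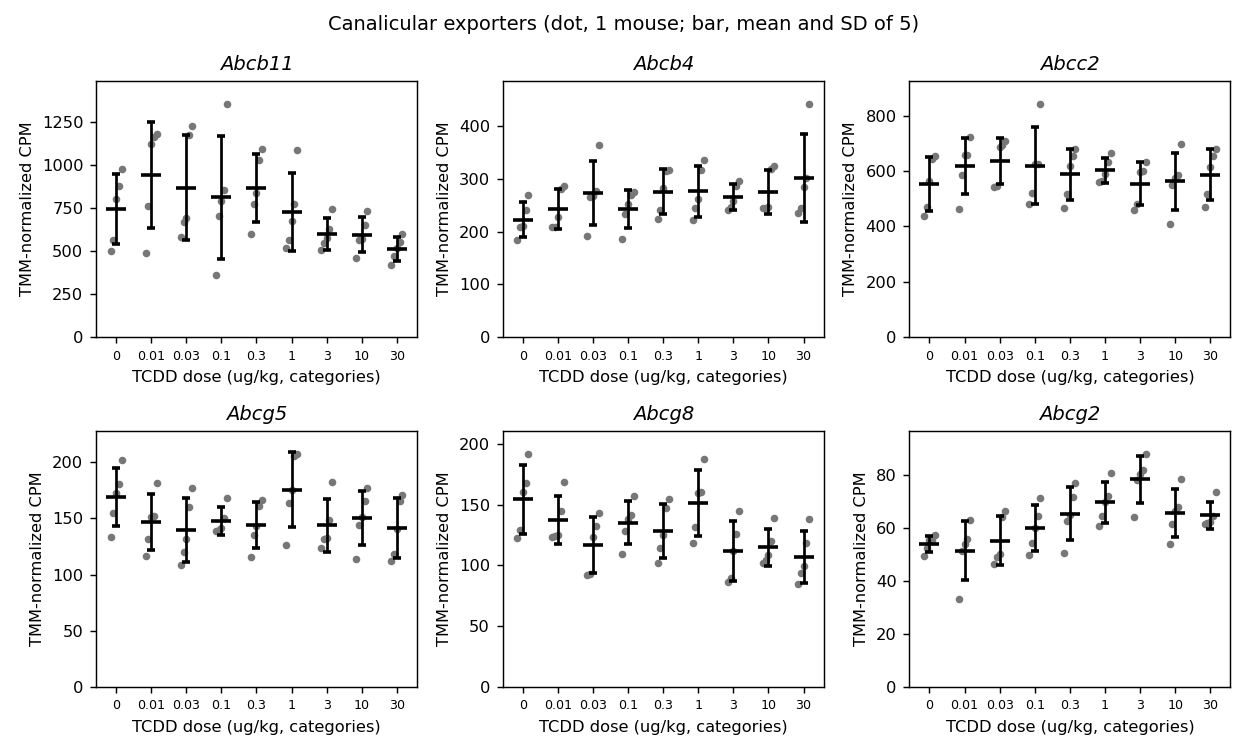
TMM-normalized CPM (vertical axes, from 0) of 6 canalicular exporters, Abcb11, Abcb4, Abcc2, Abcg5, Abcg8 and Abcg2, in the 9 dose groups (0 is vehicle; doses are evenly spaced categories). Dots are single mice and bars the mean and SD of 5. The mean of Abcb11 is 742 CPM in vehicle and 510 CPM at 30 μg/kg, a difference that did not pass the test, Abcg2 is highest at 3 μg/kg, and the group means of Abcc2 lie between 553 and 636 CPM.

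Among the 6 cholesterol and phospholipid transporters Abcg1, Abca5 and Abca7 rose at 30 μg/kg and 3 did not pass, with a median log2 fold change of 0.15. Abcg1 (chr17:31057675-31117988, plus strand), which moves cholesterol to high-density lipoprotein and is a known target of liver X receptors, rose at each dose from 1 μg/kg. Vehicle mice measured 2.97, 3.24, 3.88, 3.89 and 5.24 CPM. Mice at 30 μg/kg measured 10.2, 13.1, 13.5, 14.3 and 15.7 CPM, so the lowest of them lay above the highest vehicle mouse. The rise was 3.47-fold, with a log2 fold change of 1.80 ± 0.24 (adjusted p = 1.73e-07). It was 1.02 ± 0.24 at 1 μg/kg (adjusted p = 0.0145), 1.29 ± 0.24 at 3 μg/kg (0.000299) and 1.48 ± 0.24 at 10 μg/kg (1.37e-05), and 30 exceeded 1 μg/kg by 0.77 ± 0.23 (adjusted p = 0.015). At 1 μg/kg the call was lost without vehicle replicate 4 or replicate 4 of that dose (adjusted p of up to 0.0553).

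Abca1, which loads cholesterol and phospholipid onto apolipoprotein A-I and is also a liver X receptor target, did not pass at any dose with adjustment within each dose. It measured 179, 199, 199, 218 and 219 CPM in vehicle mice and 144, 169, 181, 189 and 215 CPM at 30 μg/kg. The log2 difference of -0.18 ± 0.11 (adjusted p = 0.241) was 0.04 without a TMM factor. Its test over all doses passed (adjusted p = 0.00138), with the highest group mean at 0.01 μg/kg (262 CPM, with all 5 mice above every vehicle mouse) and the lowest at 30 μg/kg (179 CPM). At 0.01 μg/kg the log2 difference of Abca1 was 0.37 ± 0.11 (edgeR unadjusted p = 0.00189, adjusted p = 0.245). Abca5 and Abca7 rose by 0.47 ± 0.14 and 0.42 ± 0.16 on the log2 scale from low levels, but Abca7 lost its call without any 1 of 7 mice, at an adjusted p of up to 0.147. Abca2 and Abca3, a lipid transporter of lysosome-related organelles, did not pass.

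Genes of the Abca6-like cluster, Abca8b, Abca8a, Abca9 and Abca6, follow each other on chromosome 11 between positions 109932190 and 110251776 of GRCm38 and share one strand. Only Abca9 changed at 30 μg/kg, and the median log2 fold change of the 4 genes was 0.32. Abca9 (chr11:110100749-110168196, minus strand) in vehicle mice measured 2.69, 3.63, 4.70, 4.89 and 5.12 CPM. Those at 30 μg/kg were 8.69, 8.88, 9.22, 10.1 and 11.1 CPM, well clear of the vehicle range. It rose 2.27-fold, with a log2 fold change of 1.18 ± 0.20 (adjusted p = 1.18e-05), after 0.93 ± 0.20 at 10 μg/kg (adjusted p = 0.000771) and 0.74 ± 0.20 at 3 μg/kg (0.016). Without vehicle replicate 1 or replicate 5 at 3 μg/kg the last call was lost (adjusted p of up to 0.0795). Abca8a rose at 10 μg/kg, by 0.68 ± 0.19, and did not pass at 30 μg/kg (0.41 ± 0.19, adjusted p = 0.104); it did without a TMM factor (0.63, adjusted p = 0.00903) and without vehicle replicate 3 (adjusted p = 0.0231). Its call at 10 μg/kg was lost without replicate 5 of that dose (adjusted p = 0.0565). Abca6 and Abca8b measured 271 ± 84.9 and 85.9 ± 13.9 CPM in vehicle mice and 320 ± 58.4 and 90.7 ± 36.8 CPM at 30 μg/kg (SD), and did not pass, though Abca6 did without a TMM factor (0.46, adjusted p = 0.0474).

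Abcd3, the member with the highest level in vehicle livers, fell at 10 and 30 μg/kg. It belongs to 5 peroxisomal and lysosomal members, of which 1 rose (Abcb9), 2 fell, Abcd3 among them, and 2 did not pass at 30 μg/kg. The Abcd3 protein (PMP70) imports branched and dicarboxylic acyl-CoA into peroxisomes. The upstream sequence of the gene is shown because Abcd3 had the highest vehicle level of the family. The stretch is chr3:121815303-121815552 of GRCm38.p6 in RefSeq, minus strand, 5′ to 3′ up to the base before the start site. Like that of Abcc4, it holds 2 cores (capitals, GCGTG at 137 and 58 bases before the start). Unlike in Abcc4, neither core is part of the longer form TNGCGTG. No gene is annotated there either.
Abcd3: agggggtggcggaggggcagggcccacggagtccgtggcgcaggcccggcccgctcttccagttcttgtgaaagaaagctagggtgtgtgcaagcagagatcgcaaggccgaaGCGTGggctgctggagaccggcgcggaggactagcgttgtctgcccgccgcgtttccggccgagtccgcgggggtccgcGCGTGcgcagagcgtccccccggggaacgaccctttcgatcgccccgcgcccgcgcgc

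Abcd3 measured 958, 1013, 1030, 1061 and 1194 CPM in vehicle mice and 596, 672, 684, 734 and 826 CPM at 30 μg/kg. The groups did not overlap, and the log2 fold change was -0.58 ± 0.13 (adjusted p = 0.000498), after -0.52 ± 0.13 at 10 μg/kg (adjusted p = 0.00344). Abcd2, a transporter of the same membrane, was higher at 1 μg/kg (0.83 ± 0.23) and 3 μg/kg (0.75 ± 0.23) and did not pass at 30 μg/kg (0.45 ± 0.23, adjusted p = 0.133). The calls of Abcd2 were near the threshold and were lost in 9 and 7 of the 10 fits that left out a mouse. Abcb9, a lysosomal peptide transporter, rose by 0.54 ± 0.19 from 2.19 CPM, and lost its call without any 1 of 5 mice (adjusted p of up to 0.0726). Abcd4 did not pass.

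Of the 4 mitochondrial members only Abcb10 changed at 30 μg/kg. Abcb10, known for its part in heme synthesis and in export of biliverdin, fell from 30.7 ± 2.36 to 23.1 ± 3.02 CPM (SD), by -0.41 ± 0.10 on the log2 scale (adjusted p = 0.00203), with no overlap between groups. Without a TMM factor it did not pass (-0.20, adjusted p = 0.119). Abcb6 and Abcb8 did not pass, with log2 differences of -0.08 and 0.08. Without a TMM factor that of Abcb6 turned to 0.14, while Abcb8 passed at 0.29 (adjusted p = 0.00951). In the annotation used here Abcb6 shares 55.2% of its exon bases with Gm29253 on the same strand. Reads there may not be counted if the release used for counting held Gm29253, which was not checked. Among the 4 proteins without a membrane part, Abcf3 rose from 39.7 ± 1.32 to 50.9 ± 2.71 CPM, by 0.36 ± 0.08 (adjusted p = 0.000882), and by 0.39 ± 0.08 at 10 μg/kg. Abce1, which recycles ribosomes, and Abcf1 and Abcf2 did not pass. The potassium channel subunit Abcc9 had a log2 difference of -0.02 ± 0.15.

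The members with no assigned role were the other 3: Abca14, Abcg3 and Abca4. Abca14 (chr7:120203961-120325352, plus strand), in the mouse known mainly from testis, measured 0.557, 0.572, 0.637, 0.910 and 0.924 CPM in vehicle mice. At 30 μg/kg the values were 0.0572, 0.0802, 0.283, 0.361 and 0.446 CPM, or 1 to 8 reads per mouse against 9 to 18 in vehicle mice. The groups did not overlap, and the level was 2.76-fold lower (log2 fold change -1.47 ± 0.37, adjusted p = 0.00214). At 10 μg/kg, between the doses of 3 and 30 μg/kg at which it passed, the difference was -0.59 ± 0.34 (adjusted p = 0.246). Abca4, the retinoid flippase of the eye, had at most 10 reads and did not pass.

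Several members, Abcg3, Abcg1, Abcc1 and Abca9 among them, were high in a mouse with high macrophage and neutrophil markers. Abcg3 measured 15.8 CPM in replicate 5 at 0.01 μg/kg, against 1.96 to 3.64 CPM in the other 4 mice of that group. The 6 macrophage markers summed to 886 CPM in that mouse and to 134 to 248 CPM in the other 4. Its neutrophil markers summed to 11.7 CPM, against 0.478 to 0.963 CPM in the other 4. The lymphocyte sum of that mouse was also the highest of its group, 2.17 CPM against 0.912 to 1.87 CPM. Its endothelial and stellate sums (135 and 112.8 CPM) lay within those of the other 4 (82.4 to 137.4 and 70.1 to 114.1 CPM). Abcc1 in that mouse was 3.05 CPM, against 0.631 to 1.82 CPM in the other 4, and Abca9 was 8.29 CPM, against 2.81 to 4.41 CPM. At 3 μg/kg, replicate 1 had the highest macrophage sum (525 CPM), the highest Abcg3 (6.87 CPM) and the highest Abcg1 (14.2 CPM, against 7.19 to 8.80 CPM in the others). Abcc1 in that mouse was also the highest of its group, 3.43 CPM against 1.67 to 2.32 CPM. So were its neutrophil, lymphocyte, endothelial and stellate marker sums (9.94, 4.02, 169.5 and 183.7 CPM). The macrophage sums ranged from 136 to 218 CPM in vehicle mice and from 112 to 349 CPM at 30 μg/kg, and only Cd68 of the 6 markers passed. The mouse with the lowest sum at 30 μg/kg (replicate 4, 112 CPM, below every vehicle mouse) also had the lowest Abcg1 and Abcc4 of its group, 10.2 and 7.69 CPM, both above every vehicle mouse. Abcg3 in that mouse was 2.62 CPM, within the vehicle range of 1.97 to 5.11 CPM. Its neutrophil, lymphocyte, endothelial and stellate sums were also the lowest of its group (1.73, 1.89, 137.2 and 209.7 CPM). In the mouse at 0.01 μg/kg the macrophage markers cannot be told apart from neutrophil and lymphocyte markers. In the mice at 3 and 30 μg/kg they cannot be told apart from neutrophil, lymphocyte, endothelial and stellate markers. The part of each cell type was not tested. Abcg3 did not pass at 30 μg/kg (0.70 ± 0.37, adjusted p = 0.153), but passed at an adjusted p of 0.0476 when the 2 unusual mice at 0.01 μg/kg were left out.

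**Figure D5:**
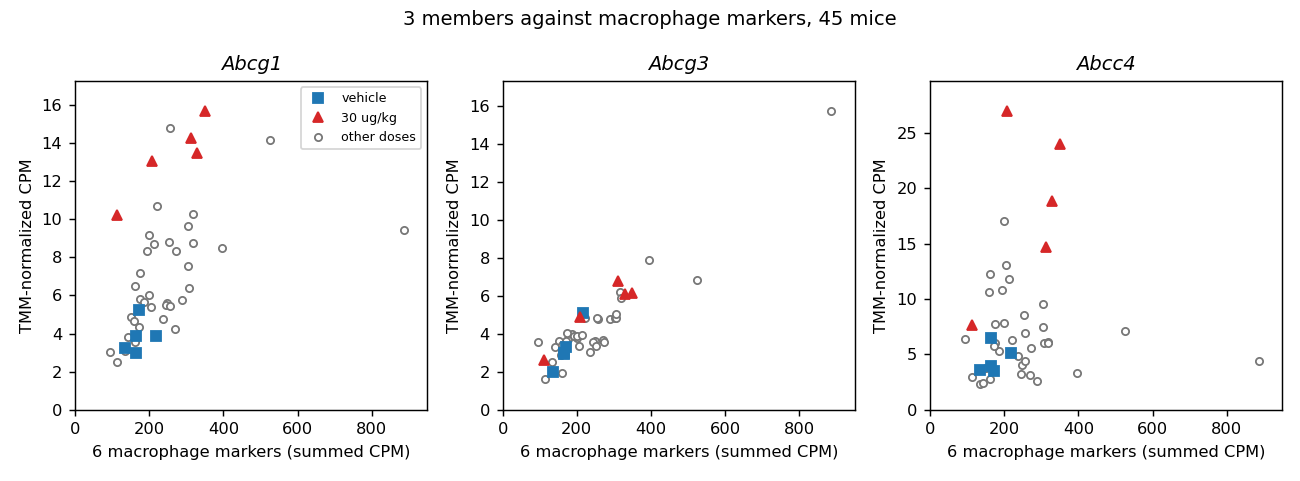
TMM-normalized CPM of Abcg1, Abcg3 and Abcc4 (vertical axes) against the summed CPM of 6 macrophage markers (horizontal axis) in the 45 mice. Squares are vehicle mice, triangles mice at 30 μg/kg and open circles the other doses. The mouse at 886 CPM of markers has the highest Abcg3 (15.8 CPM), and for Abcg1 and Abcc4 all 5 triangles lie above all 5 squares, including the triangle at 112 CPM of markers.

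Between the TCDD groups, 14 members differed between 30 and 1 μg/kg, against 17.5% of all genes; this comparison and the next were chosen after values had been seen. Abcg1, Abca9, Abcc4, Abcb9, Abcc5, Abca7 and Abcf3 were higher at 30 μg/kg. Members that were lower included Abcb1a, Abcc3, Abcg8, Abcc6, Abcd3 and Abcb6. The call of Abcb6 was lost in 7 of 10 fits that left out a mouse and under 4 of 6 other settings (adjusted p of up to 0.471), and those of Abcd3 and Abcg8 in 6 and 4 of the 10 fits and without a TMM factor (adjusted p = 0.205 and 0.0761). Among those higher, Abca7, Abcf3 and Abcc5 lost their calls in 4, 2 and 1 of the 10 fits. Abcb1a differed by -1.44 ± 0.33 on the log2 scale (adjusted p = 0.00155) and Abcc6 by -0.46 ± 0.11 (adjusted p = 0.0024). No member passed between 30 and 10 μg/kg with edgeR (background 0.613%), whereas 7 had an unadjusted p under 0.05 (7.56% of all genes) and 1 passed with DESeq2.

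Members that rose had mostly low vehicle levels. Of the 13 members below 1 CPM per kb, 8 were higher and 1 lower at 30 μg/kg, or 61.5% and 7.69%, against 22.1% and 4.08% of the 7086 genes below that level. Of the 29 members at or above 1 CPM per kb, 2 were higher and 6 lower, or 6.9% and 20.7%, against 11% and 21.2% of 10184 genes. Without a TMM factor the 29 members gave 10 higher and 3 lower (34.5% and 10.3%), against 27% and 10.1% of the 10184 genes, so the balance turned with the scaling for members and all genes alike. The 13 members were then again 8 higher and 1 lower, against 31.2% and 2.64% of the 7086 genes.

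With TMM scaling, more listed genes of canalicular transport and bile acid carriage fell than rose at 30 μg/kg. The list holds partners of canalicular transporters and also other bile acid carriers (Slc10a1, Slc51a and Slc51b). Of its 14 genes 13 were tested, and 1 rose and 6 fell, with a median log2 fold change of -0.37 (background of all genes 15.5% higher and 14.1% lower). This list and that of the regulators below were chosen with earlier results of these data known. Neither was counted without a TMM factor, a scaling that moved the median of all genes up by 0.21 at this dose. Slc10a1, the sodium-dependent bile acid uptake carrier, fell by 0.65 ± 0.12 on the log2 scale. Rdx (radixin), which anchors Abcc2 at the canaliculus, fell by 0.69 ± 0.11, and its relative Ezr (ezrin) rose by 0.87 ± 0.18. Tmem30a, the partner of the canalicular flippase Atp8b1, fell by 0.50 ± 0.10, while Atp8b1 itself did not pass (-0.15 ± 0.19). The copper pump Atp7b, the scaffold Pdzk1 and Ceacam1 also fell. Among 13 receptors and factors known to regulate ABC transporters, Nfe2l2, a regulator of Abcc exporters, rose by 1.24 ± 0.09, and Nr1h2, Nr1h3 (the liver X receptors) and Nr5a2 fell by 0.30, 0.44 and 0.45. Nr1h4 (the bile acid receptor FXR), Nr1i2, Nr1i3, Ppara, Hnf4a and the other members of the list did not pass. Tap1, Tap2 and Cftr did not pass with edgeR or DESeq2 or at an unadjusted p under 0.05.

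The dioxin response element core was about as frequent in members as in all promoters. GCGTG or its reverse complement CACGC was searched on both strands from 250 bases before to 50 bases after each RefSeq start site. It was found in 13 of 39 windows of 32 members (33.3%) and in 32.4% of all 32851 windows. The longer form TNGCGTG was in 1 member window (2.56%), that of Abcc4, and in 5.07% of all windows. Of the 10 members that rose at 30 μg/kg 8 had a window and 4 of these held the core (Abca5, Abcb4, Abcc4 and Abcf3). Of the 7 that fell 5 had a window and 2 held it (Abcd3 and Abcg8). Of the 25 that did not pass 19 had a window and 7 held it. These counts are per member, whereas the shares above are per window. For Abcg8 the letters lie in a window at its other listed start. A match is a description of these letters only. Members with no entry included Abca6, Abcb8, Abcc1, Abcc3, Abcc6, Abcd2, Abcd4 and Abcg1.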

How the data were processed

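Liver RNA of 45 mice (9 groups of 5) was sequenced, and each deposited file holds raw counts per Ensembl gene for 1 mouse. Per the labels and the study's methods, the authors made TruSeq libraries, aligned the reads to GRCm38 with TopHat 1.4.1 and counted uniquely aligned reads per gene with HTSeq 0.6.1; the submitters' processing notes also name FastQC 0.11.2, SAMtools 0.1.19 and DESeq. Whether counting used strand is not given in the sources used here. How reads on exon bases shared with an antisense gene were counted is therefore not known. Reads shared by near-identical genes were not counted. The total rows of each file were left out. Reads on no gene or shared by genes made up 10.7 to 18.4% of uniquely aligned reads. The left-out row of alignments to more than 1 place held between 8231611 and 59345763 per mouse, and is not part of that share. The median library held 17225047 reads assigned to genes. The labels name no sequencing pool, so no within-pool values could be had, and p-values measure the spread between these mice. No 2 files of a group agreed within sampling noise (lowest chi-square per degree of freedom 13.7 over 90 pairs).

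The 17464 genes with more than 4 reads in any mouse were fitted in edgeR 4.0.16 (R 4.3.3) with TMM factors, 1 coefficient per group, glmQLFit and glmQLFTest, and Benjamini-Hochberg adjustment over all of them within each dose; a call is an adjusted p under 0.05. SE of a log2 fold change was its absolute value divided by the square root of the quasi-likelihood F statistic. This SE is unstable for genes with few reads and a change near 0. For Abca4 it was 0.158 at 0.3 μg/kg and 0.713 at 0.01 μg/kg. Fold changes of genes with few reads depend on edgeR's prior count. The fit was tested on simulated data. Alternatives were DESeq2 1.42.0, its size factors, no TMM factor, other read filters, 2 groups per fit, adjustment over all doses, and leaving out each of the 45 mice in turn; leaving out both unusual mice at 0.01 μg/kg was chosen after seeing the data. Members, role groups and the lists of canalicular transport genes, regulators and markers were chosen with earlier results of these data known. Values of every vehicle and 30 μg/kg mouse are given for members with at least a 2-fold change at an adjusted p under 0.05 at 30 μg/kg and, whatever their result, for Abcb11, Abcb4, Abcc2, Abcg2, Abcg5, Abcg8, Abcb1a, Abcc3, Abcc4, Abcc6 and Abca1; further members were named as examples of their group, and 2 members are counted but not reported here by name or drawn. Gene positions are of GRCm38 and promoter letters of RefSeq on GRCm38.p6. Exon lengths, gene positions and exon overlaps come from a GENCODE annotation of GRCm38, not from the Ensembl release with which the study counted reads. Levels per kb and overlaps may therefore differ from that release. Which sequences are printed was decided after values were seen.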

Additional observations from a re-analysis of the deposited data

Results flagged for a closer look

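Dixon's test was applied to the 9 groups of 5 mice for each of 14 members, and 1 mouse stood apart from the others in 4 of 126 groups (critical value 0.71), where chance gives about 1 in 20. Abca1 measured 205.1 CPM in replicate 1 at 0.03 μg/kg, against 255.9 to 270.2 CPM in the other 4 mice, and 293.3 CPM in replicate 2 at 0.3 μg/kg, against 227.4 to 243 CPM. Abcg1 measured 14.18 CPM in replicate 1 at 3 μg/kg, against 7.185 to 8.798 CPM. The macrophage markers of that mouse summed to 524.7 CPM, the highest of its group. Its neutrophil, lymphocyte, endothelial and stellate marker sums were also the highest, and the part of these cell types in the value was not tested. Abcg2 measured 73.54 CPM in replicate 4 at 30 μg/kg, against 61.63 to 64.57 CPM.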

How the results depend on the processing

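No paired analysis was possible because the labels carry no replicate numbers, and mice are numbered here in accession order only. No called member reversed its direction under any alternative run. Counts of members called (edgeR unless named) moved as follows. With adjustment over all doses together, 1 member was called at 0.01 μg/kg (higher) and 2 at 0.3 μg/kg (both higher). With a filter of at least 1 read, with only the 2 groups in the fit, or without the 2 unusual mice, the count at 0.3 μg/kg was 0, also for higher members and for those of at least 2-fold. At 3 μg/kg 2 members were lower with DESeq2 and with filterByExpr. At 10 μg/kg 13 members were called without a TMM factor (12 higher, 2 of at least 2-fold), 11 with only the 2 groups in the fit (3 lower), and 3 were lower with DESeq2. At 30 μg/kg the fit without a TMM factor gave 18 higher and 4 lower, and the members then not called included Abcb10 and Abcg8. At that dose adjustment over all doses ended the calls of Abca7 (adjusted p = 0.131), Abcb4 (0.0913) and Abcb9 (0.0824), and the fit of only the 2 groups ended those of Abca7 and Abcb4 and called Abcb11, Abcd2 and Abcg2.

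Leaving out 1 mouse at a time, counts ranged from 0 to 1 at 0.3 μg/kg (higher 0 to 1, at least 2-fold 0 to 1), from 1 to 4 at 1 μg/kg (higher 1 to 4, at least 2-fold 0 to 2), from 4 to 9 at 3 μg/kg (higher 3 to 8, lower 1 to 2), from 6 to 8 at 10 μg/kg (lower 1 to 3, at least 2-fold 1 to 2) and from 14 to 16 at 30 μg/kg (higher 7 to 9, lower 6 to 7). At 1 μg/kg the count was 1 without vehicle replicate 4, and 2 without vehicle replicate 1 or 5 or replicate 4 of that dose; at 3 μg/kg it was 4 without replicate 5 of that dose; at 10 μg/kg 3 members were lower without replicate 5 of that dose, and 2 without vehicle replicate 1 or 5. At 30 μg/kg 4 of the called members, among them Abca7, Abcb4 and Abcb9, each lost their call in some of these fits, and the other 13 did not. Depth limits Abcc12, Abca14, Abca4 and Abcb1b most, with at most 41, 18, 10 and 43 reads in any mouse.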
